A study of Mus musculus with 12 samples.

Results

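Secondary (specific) granule protein genes were followed in blood neutrophils of mice that had received bone marrow transplants. The 10 genes, Ltf, Camp, Ngp, Lcn2, Cd177, Chil3, Lyz2, Hp, Wfdc21 and Ifitm6, were taken by symbol from a deposited table of 11494 genes, and all 10 were found there. The table holds 12 libraries, 6 from mice given LOY marrow (libraries 4, 5, 9, 10, 15 and 19) and 6 from mice given control marrow (libraries 1, 2, 6, 12, 17 and 18). LOY is the genotype label, and the series title gives it as haematopoietic loss of the Y chromosome; the treatment label reads Control in both groups. Each library was made from 10000 Ly6G-positive, CD115-negative, RFP-positive cells sorted from whole blood after lysis of red cells, and cDNA was amplified with a full-length, low-input kit. The sources used here give no strain, sex or age, do not say what carries RFP and do not state that a library stands for 1 mouse. The p-values therefore describe spread among libraries, which may be technical.

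Neutrophils fill their granules in the bone marrow in a fixed order. Secondary granule proteins are made in myelocytes and metamyelocytes, after the myeloperoxidase-containing primary granules and before the gelatinase granules, and the transcription factor C/EBP epsilon is required for many of them. They are antimicrobial and iron-binding proteins that leave the cell when it meets a stimulus. Their messages are abundant in marrow precursors and decline as the cells mature, so blood neutrophils carry what is left together with messages that are still made.

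Depth and cell identity set the frame for these values. Recovered reads per library ranged from 17097739 to 19616066 in LOY and from 13743581 to 18459792 in Control. Listed genes at 0 made up 6.59% to 11.6% of the table in LOY libraries and 9.33% to 21.7% in Control libraries, with Control 1, 2 and 12 at 20.5%, 21.7% and 17.3%. All 16 mature neutrophil markers on the list used were in the table, and 0 of them passed between groups (limma). At an unadjusted p under 0.05 (limma) there were 3 of the 16, 1 higher and 2 lower in LOY, beside 6.04% of all genes tested. S100a8 and S100a9, the calprotectin subunits, were the most abundant of these markers. Y-linked genes summed to 0.162 to 86.3 RPM (recovered reads scaled to the library total) in LOY and 155 to 254 RPM in Control, and the library labelled LOY 4 held the 86.3 while the other 5 LOY libraries held at most 6.73. In bulk RNA, fewer cells of a type and less RNA per cell cannot be told apart.

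Sequence was looked at first, because 3 of the genes are neighbours and because pairs of them moved together. Camp, Ngp and Ltf lie within 1.2 Mb of chromosome 9 (GRCm38), with 0.57 Mb between Camp and Ngp and 0.596 Mb between Ngp and Ltf. The 250 bases before the RefSeq start (GRCm38.p6) are shown for these 3 and for Lcn2, which followed Ngp closely over the libraries. These RefSeq starts lie inside the GENCODE M21 gene spans given below, so each window overlaps its gene's span, and the Lcn2 window lies wholly within it. Capitals mark the letters TTGCNNAA or, on the other strand, TTNNGCAA, a C/EBP-type core.
Ltf, chr9:111019042-111019291, plus strand: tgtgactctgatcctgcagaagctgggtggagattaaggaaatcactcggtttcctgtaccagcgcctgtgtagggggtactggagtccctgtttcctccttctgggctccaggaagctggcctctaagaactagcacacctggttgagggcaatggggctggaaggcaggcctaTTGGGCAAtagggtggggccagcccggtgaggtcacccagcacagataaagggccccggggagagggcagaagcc
Ngp, chr9:110419558-110419807, plus strand: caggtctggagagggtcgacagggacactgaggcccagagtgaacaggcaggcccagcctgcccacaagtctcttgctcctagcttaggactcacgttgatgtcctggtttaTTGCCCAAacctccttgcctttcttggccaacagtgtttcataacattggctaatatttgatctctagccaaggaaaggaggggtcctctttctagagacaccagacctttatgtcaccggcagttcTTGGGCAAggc
Lcn2, chr2:32387740-32387989, minus strand: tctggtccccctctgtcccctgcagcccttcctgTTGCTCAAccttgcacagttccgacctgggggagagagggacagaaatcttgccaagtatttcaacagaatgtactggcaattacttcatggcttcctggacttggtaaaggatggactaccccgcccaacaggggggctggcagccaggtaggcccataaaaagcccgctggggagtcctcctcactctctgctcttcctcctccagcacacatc
Camp, chr9:109849457-109849706, minus strand: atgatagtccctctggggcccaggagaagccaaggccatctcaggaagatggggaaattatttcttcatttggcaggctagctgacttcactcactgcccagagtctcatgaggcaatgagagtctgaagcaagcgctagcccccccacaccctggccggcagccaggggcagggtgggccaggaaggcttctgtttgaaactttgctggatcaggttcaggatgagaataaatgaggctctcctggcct

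Promoter entries were matched for 8 of the 10 genes, all except Hp and Wfdc21. The C/EBP-type letters were found in 3 of the 8, namely Ltf, Ngp and Lcn2, against 9.56% of all 32851 promoter windows of 250 bases. Counted from the start, the match began at base -75 in Ltf, at -138 and -11 in Ngp and at -216 in Lcn2. The shorter letters GAGGAA, a PU.1-type core read on both strands, were found in 3 of the 8, Ltf, Lcn2 and Cd177, against 23.3% of all windows, and overlapped no C/EBP-type match. Ifitm6 followed Ngp as closely as Lcn2 did (r = 0.897 against 0.894), and its window held 0 matches of either kind. Ltf, with a match of each kind, had r = -0.261 with Ngp. Whether a match goes with shared movement was not tested. A match is a description of these letters, and a window without one says nothing about the factor.

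The genes differed widely in level. Lyz2 (chromosome 10, 117277331 to 117282321), which encodes the lysozyme of myeloid cells that degrades bacterial cell walls, ranked 3 of all listed genes by mean normalized reads. Scaled by exon length and library total, it stood at 20496 ± 3698 length-scaled RPM in LOY and 23940 ± 2527 in Control (SD, n = 6 each). Next on the same scale, over all 12 libraries, came Hp at 6555 ± 528, Wfdc21 at 4417 ± 962, Lcn2 at 1073 ± 233, Ifitm6 at 573 ± 165, Cd177 at 355 ± 97.6 and Ngp at 262 ± 172. Far below them lay Camp at 21.4 ± 15.9, Ltf at 16.6 ± 19.0 and Chil3 at 10.2 ± 11.2. Lyz2 lay above Hp, Wfdc21 above Lcn2 and Ngp above Camp in all 12 libraries with no overlap of their ranges. Camp lay above Ltf in 9 of 12 libraries and Ltf above Chil3 in 8 of 12, so the order of these lowest neighbours was within their spread. By group, Camp averaged 31.5 length-scaled RPM in LOY and 11.2 in Control, Ltf 29.6 in LOY and 3.67 in Control, and Chil3 12.7 in LOY and 7.75 in Control, so that Chil3 stood above Ltf in Control.

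Reads of some genes could be shared with near copies. Of the 50-base stretches of their annotated transcripts, 26.9% in Chil3 (with Chil4 and Gm6522), 15.4% in Lyz2 (with Lyz1) and 5.51% in Cd177 (with Gm4763 and BC049730) occurred in another gene, and 0 in each of the other 7. The values of Chil3, Lyz2 and Cd177 are uncertain to that extent. The exons of none of the 10 overlapped those of another annotated gene.

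**Figure D1:**
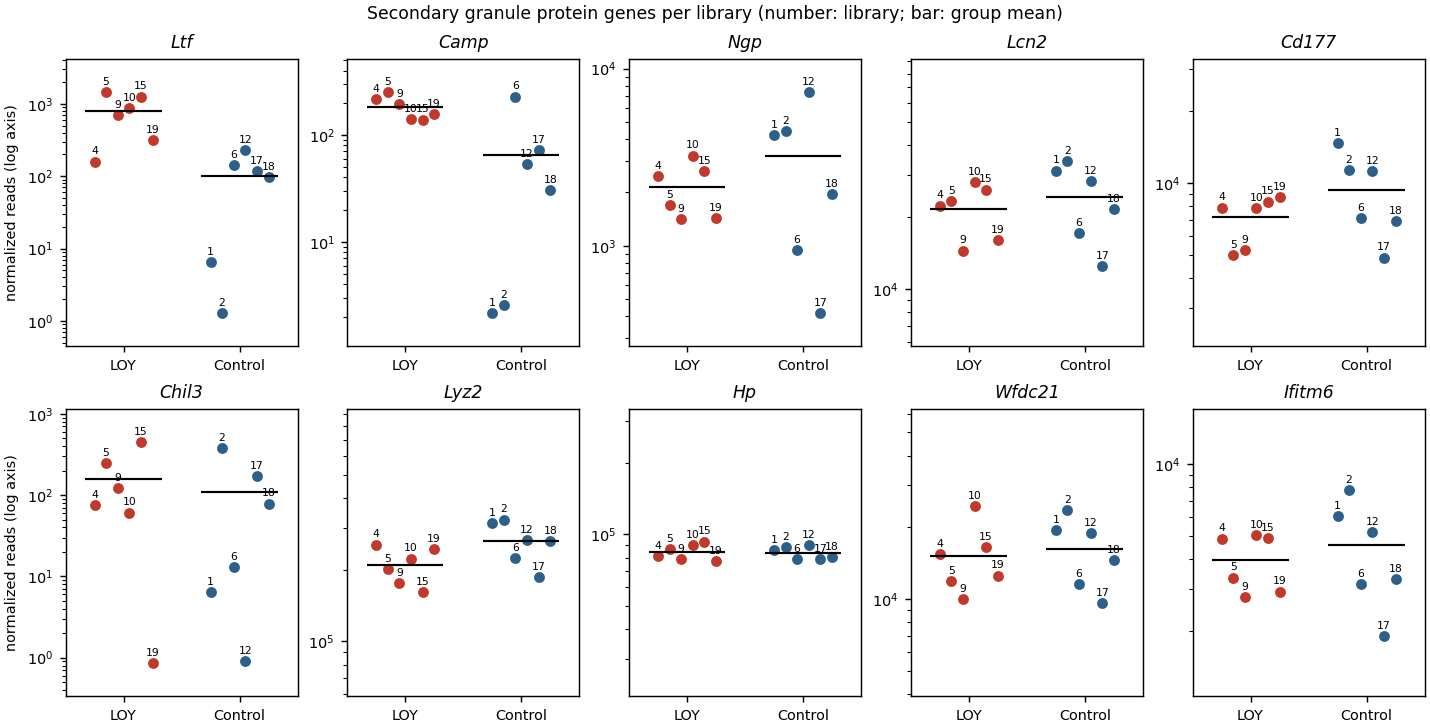
Normalized reads (log axis, range differing by panel) of each gene in the 6 LOY and 6 Control libraries, with the library number beside each point and a bar at the group mean. For Ltf 5 of the 6 LOY points lie above all Control points, Camp and Ltf were lowest in Control 1 and 2, and Hp stayed between 77501 and 93321 normalized reads.

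Ltf (chromosome 9, 111019271 to 111042767) encodes lactoferrin, the iron-binding protein of secondary granules. It ranged from 159 to 1444 normalized reads in LOY, with a median of 782, and from 1.28 to 232 in Control, with a median of 106. LOY 4, the lowest LOY library at 159, lay below Control 12 at 232, and the other 5 LOY libraries lay above every Control library. In Control 1 and 2 it rested on 6 reads and 1 read. The log2 fold change of LOY over Control was 3.84 ± 1.13 (SE, 95% interval 1.39 to 6.28; limma adjusted p = 0.602, unadjusted p = 0.00499), on the log2(value + 1) scale. The ratio of the group means was 7.95, and without Control 2 alone the log2 fold change was 2.99. Without Control 1, 2 and 12 the log2 fold change was 2.39 ± 0.66 (limma adjusted p = 0.937), and it was 1.88 ± 1.18 after adding each library's share of genes at 0 to the model (limma adjusted p = 0.99992). With DESeq2 on the recovered reads it passed (log2 fold change 2.99 ± 0.79, adjusted p = 0.0351). The authors' deposited table held the same estimate (2.99, adjusted p = 0.0345), so it is not a second test. Ltf also moved with depth over the 12 libraries (Pearson r with recovered reads 0.827, permutation p adjusted over 30 relations 0.0067; Spearman rho 0.853, adjusted permutation p 0.0167), and r was 0.570 without Control 2 and LOY 5, the libraries farthest from the median depth. The part of depth and of genes at 0 in the difference was not tested beyond these values.

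Camp (chromosome 9, 109847379 to 109849617) encodes cathelicidin, the precursor of the antimicrobial peptide CRAMP. It ranged from 139 to 251 normalized reads in LOY, with a median of 176, and from 2.15 to 229 in Control, with a median of 41.9. All 6 LOY libraries lay within a narrow band above 5 of the 6 Control libraries, while Control 6 at 229 lay above all LOY libraries but LOY 5. Control 1 and 2 held 2 reads each. The log2 fold change was 2.78 ± 1.00 (SE, 95% interval 0.61 to 4.95; limma adjusted p = 0.762), against 1.15 ± 0.57 without Control 1, 2 and 12 (limma adjusted p = 0.937) and 0.63 ± 0.83 after adding the share of genes at 0 to the model (limma adjusted p = 0.99992). DESeq2 on the recovered reads gave 1.5 ± 0.85 (unadjusted p = 0.0789) and edgeR 1.51 (unadjusted p = 0.123), and Camp passed in neither. The authors' deposited table held the same estimate as DESeq2, 1.5.

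Ngp (chromosome 9, 110419747 to 110423012) encodes neutrophilic granule protein, a mouse relative of the cathelicidins. Its values ran from 1419 to 3229 normalized reads in LOY, with a median of 2091, and from 416 to 7363 in Control, with a median of 3080. All LOY values fell inside the Control range, with the lowest value of all in Control 17 and the highest in Control 12. Control 1 and 2, nearly without Ltf and Camp, held 4198 and 4452 normalized reads of Ngp. The log2 fold change was -0.09 ± 0.61 (SE, 95% interval -1.41 to 1.22; limma adjusted p = 0.98), and turned to 1.15 ± 0.45 without Control 1, 2 and 12 (limma adjusted p = 0.937).

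Lcn2 (chromosome 2, 32384633 to 32388252) encodes lipocalin-2, which binds the siderophores that bacteria use to take up iron. It lay between 14490 and 28135 normalized reads in LOY, with a median of 22870, and between 12517 and 34500 in Control, with a median of 24979. All LOY values fell inside the Control range. Its log2 fold change was -0.11 ± 0.25 (SE, 95% interval -0.66 to 0.44; limma adjusted p = 0.937).

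Hp (chromosome 8, 109575128 to 109579172), which encodes the haemoglobin-binding protein haptoglobin, varied least of the 10. It had 77501 to 93321 normalized reads in LOY, with a median of 84086, and 78808 to 89885 in Control, with a median of 83092. Its coefficient of variation was 7.63% in LOY and 5.93% in Control, against 64.3% and 87.8% for Ltf. Between groups the log2 fold change was 0.02 ± 0.06 (SE, 95% interval -0.11 to 0.14; limma adjusted p = 0.96).

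Wfdc21 (chromosome 11, 83746940 to 83752642) encodes a small secreted protein with a WAP domain. It ranged from 10001 to 24548 normalized reads in LOY, with a median of 14011, and from 9613 to 23549 in Control, with a median of 16718. LOY 10 held the highest value of all libraries and Control 17 the lowest. LOY over Control, the log2 fold change was -0.10 ± 0.25 (SE, 95% interval -0.64 to 0.44; limma adjusted p = 0.943).

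Chil3 (chromosome 3, 106147554 to 106167564) encodes the chitinase-like protein Ym1, which lacks chitinase activity. It ranged from 0.864 to 453 normalized reads in LOY, with a median of 98.6, and from 0.916 to 378 in Control, with a median of 45.9. LOY 19 and Control 12 held 1 read each, and the LOY range enclosed the Control range. The log2 fold change was 1.14 ± 1.54 (SE, 95% interval -2.20 to 4.48; limma adjusted p = 0.889), and the interval spans large changes in either direction. Its recovered reads ran from 1 to 507 between libraries.

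Lyz2 ranged from 160509 to 254567 normalized reads in LOY, with a median of 211546, and from 186640 to 323926 in Control, with a median of 264891. LOY 9 and 15 lay below every Control library, Control 1, 2, 12 and 18 lay above every LOY library, and the rest overlapped. The log2 fold change was -0.32 ± 0.15 (SE, 95% interval -0.64 to 0.0013; limma adjusted p = 0.81), against -0.10 ± 0.16 without Control 1, 2 and 12 (limma adjusted p = 0.976).

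The remaining pair encodes membrane proteins. Cd177 (chromosome 7, 24743983 to 24760311), a surface protein also held in secondary granule membranes, ranged from 4988 to 8744 normalized reads in LOY, with a median of 7872, and from 4861 to 14686 in Control, with a median of 9169. Control 1, 2 and 12 held the 3 highest values and no LOY library reached them. Its log2 fold change was -0.32 ± 0.26 (SE, 95% interval -0.88 to 0.24; limma adjusted p = 0.849), and 0.18 ± 0.22 without those libraries (limma adjusted p = 0.967). Ifitm6 (chromosome 7, 141015699 to 141017924), of the interferon-induced transmembrane family, ranged from 2765 to 5062 normalized reads in LOY, with a median of 4115, and from 1909 to 7775 in Control, with a median of 4255, so the Control range enclosed the LOY range. Its log2 fold change was -0.10 ± 0.32 (SE, 95% interval -0.78 to 0.59; limma adjusted p = 0.957).

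Read together, 0 of the 10 genes passed in LOY against Control (limma, adjusted p under 0.05), beside 2 of 9742 genes tested (0.0205%). Of the Y-linked genes 2 were tested in this fit and 0 passed, although their median log2 fold change was -6.95. Both were at an unadjusted p under 0.05 and lower in LOY. A gene that did not pass here is therefore not shown to be unchanged. At an unadjusted p under 0.05 there were 2 of the 10, Ltf and Camp, both higher in LOY, beside 4.40% of all genes tested in that direction, 1.63% in the other and 6.04% in either. With edgeR 0 of the 10 passed, beside 0.00% of all genes called. At an unadjusted p under 0.05 edgeR gave 1 of the 10, Ltf, beside 288 of 9802 genes tested (142 higher and 146 lower in LOY). With DESeq2 1 of the 10 passed, Ltf, which was higher in LOY, beside 0.484% of all genes called (0.395% higher and 0.0897% lower). In the authors' deposited table Ltf was the 1 gene of the 10 called, beside 0.493% of all genes (0.401% higher). The 54 genes called there were the same 54 that DESeq2 called here, so this repeats the DESeq2 result and is not a second one. None of the 10 had all LOY libraries above or below all Control libraries, beside 0.175% and 0.113% of genes tested. Estimates were positive for 4 genes and negative for 6, with a median of -0.09 beside 0.14 over all genes tested; relative to that gene median the estimates were 3.70 for Ltf, 2.65 for Camp, 1.01 for Chil3, -0.12 for Hp and between -0.23 and -0.46 for the others. All 10 passed the filter on low values.

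**Figure D2:**
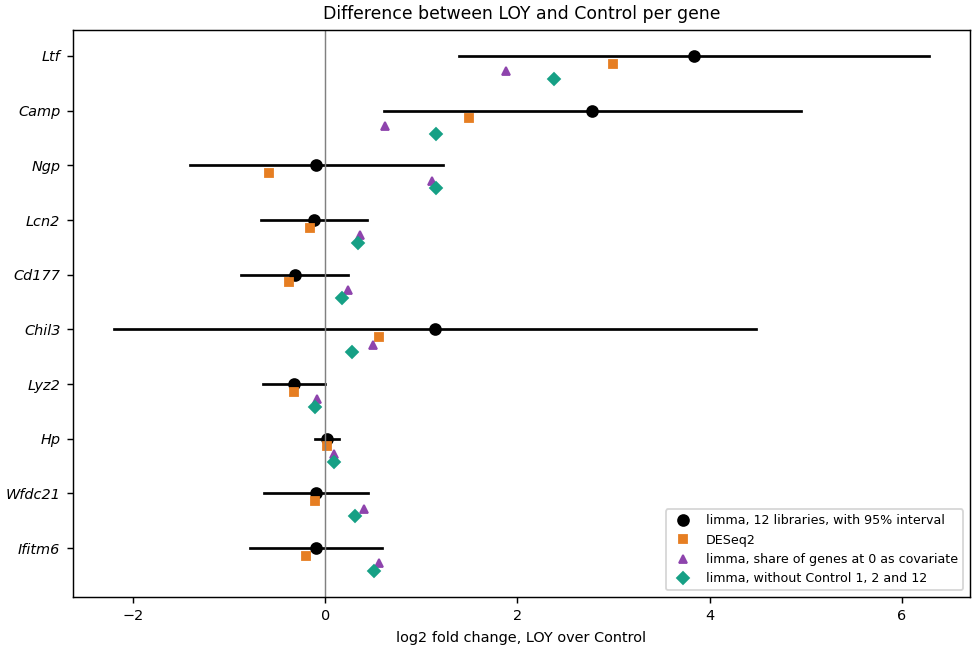
Log2 fold change of LOY over Control for each gene, from limma with all 12 libraries (black, bar for the 95% interval), DESeq2 on recovered reads (orange), limma with that share of genes at 0 in the model (purple) and limma without Control 1, 2 and 12 (green). Ltf stayed above 0 at 3.84, 2.99, 1.88 and 2.39, while the estimates of Ngp, Lcn2, Cd177, Wfdc21 and Ifitm6 changed sign between settings.

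Pairs of these genes moved together between libraries of both groups. Of the 45 pairs, 19 were correlated over the 12 libraries on the log2(value + 1) scale (permutation test with 100000 resamples, two-sided p adjusted over the 45 pairs), 16 positively and 3 negatively. No such count was made over pairs of all genes. As background, the share of the other 9741 tested genes with r over 0.8 was 4.08% for Camp and 3.02% for Ltf, and between 0.154% and 0.595% for the other 8. These shares use another cut than the 19 pairs and cannot be set against that count. Pairs passed in either direction, at r as small as 0.705 for Ngp and Hp and -0.688 for Camp and Cd177. For Camp and Cd177 rho was -0.5455 (adjusted permutation p = 0.132). The tightest pair was Lcn2 and Ifitm6 (Pearson r = 0.949, permutation p = 1e-05, the smallest it can give, adjusted p = 0.00045; Spearman rho = 0.993, adjusted permutation p = 0.0003), with r = 0.915 without Control 17 and LOY 9, the libraries farthest from the median of Lcn2. Wfdc21 followed Ifitm6 (r = 0.912, adjusted permutation p = 0.0009; rho = 0.923, 0.000562; r = 0.938 without LOY 10 and Control 2) and Lcn2 (r = 0.912, 0.0009; rho = 0.902, 0.000975; r = 0.853 without Control 17 and LOY 9). Ngp followed Ifitm6 (r = 0.897, adjusted permutation p = 0.00126; rho = 0.951, 0.0003), Lcn2 (r = 0.894, 0.0009; rho = 0.937, 0.0003) and Wfdc21 (r = 0.846, 0.00262; rho = 0.923, 0.000975), with r of 0.924, 0.910 and 0.894 without Control 17 and 12. LOY 10 and 15 and Control 1, 2 and 12 held the 5 highest values of each of these 4 genes, and LOY 9 and Control 6 and 17 were among the 4 lowest for each.

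Within each group the same 6 pairs, singled out after their values were seen, kept high coefficients. In the 6 LOY libraries r was 0.976 for Ngp and Ifitm6, 0.928 for Ngp and Wfdc21, 0.886 for Ngp and Lcn2, 0.877 for Lcn2 and Ifitm6, 0.861 for Wfdc21 and Ifitm6 and 0.808 for Lcn2 and Wfdc21. In the 6 Control libraries they lay between 0.903 and 0.991. No pair passed within LOY after adjustment over 45 pairs (exact permutation test, smallest possible p 0.00139), and 8 did within Control. Without Control 1, 2 and 12, 5 pairs passed in the remaining 9 libraries, all of them among these 6, at r between 0.857 and 0.922; the other one, Ngp and Wfdc21, stood at 0.811 (exact permutation test, adjusted p = 0.0714). With each gene taken as its deviation from a line on the share of genes at 0, chosen after seeing the data, 7 pairs passed, the 6 and the pair of Lcn2 and Hp, at r between 0.757 and 0.918.

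**Figure D3:**
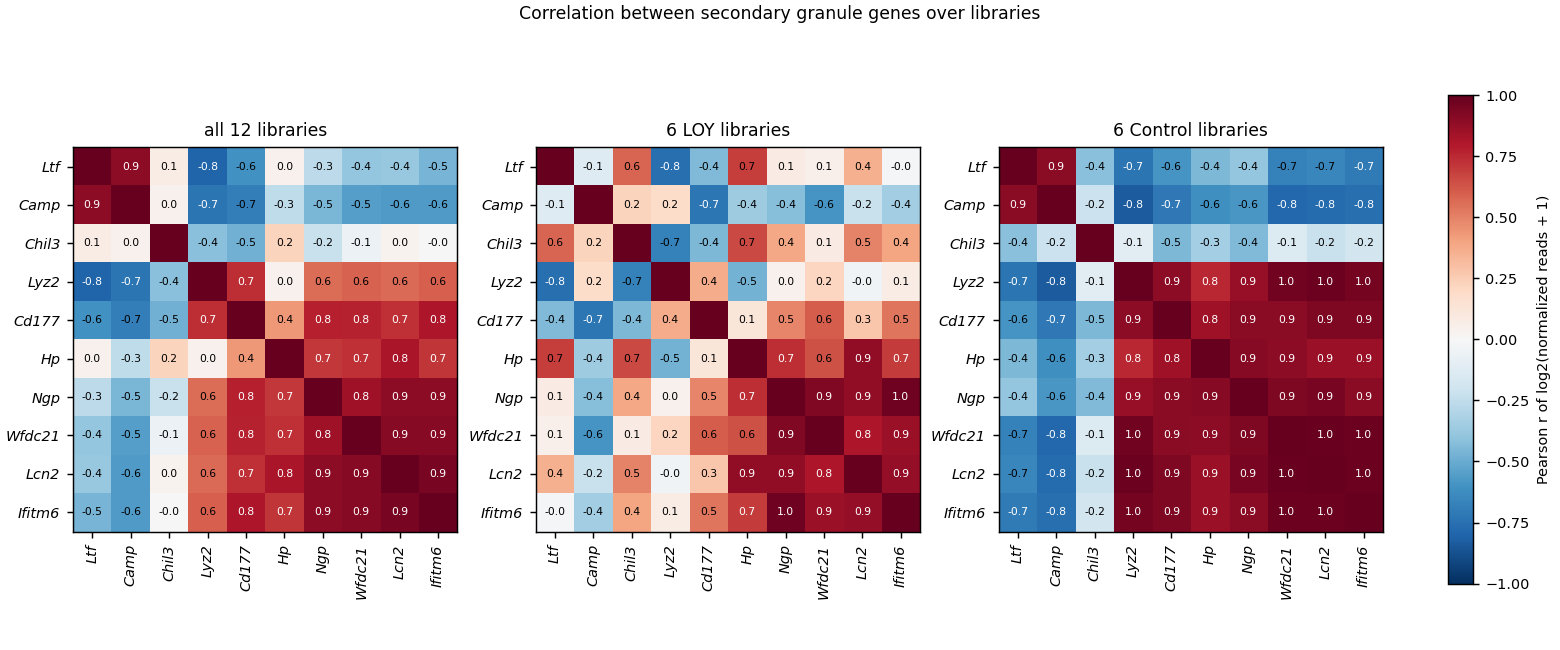
Pearson r of log2(normalized reads + 1) for each pair, over all 12 libraries, the 6 LOY libraries and the 6 Control libraries, with genes ordered by hand after their values were seen. The block of Ngp, Wfdc21, Lcn2 and Ifitm6 stayed between 0.808 and 0.976 in LOY and between 0.903 and 0.991 in Control, while Ltf and Camp had -0.132 in LOY and 0.904 in Control.

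Hp and Cd177 followed that block less closely. Hp was correlated with Lcn2 (r = 0.814, adjusted permutation p = 0.00783; rho = 0.790, 0.0199; r = 0.796 without Control 17 and LOY 9), although it stayed between 77501 and 93321 normalized reads. Quantile normalization turned that coefficient to -0.311 and also reversed the other 3 pairs of Hp that had passed. Cd177 was correlated with Ifitm6 (r = 0.809, adjusted permutation p = 0.00735; rho = 0.769, 0.022; r = 0.733 without Control 1 and 17), with r = 0.532 within LOY and 0.931 within Control. Chil3 was correlated with none of the others (adjusted permutation p above 0.05 for all 9 of its pairs).

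Ltf and Camp formed a pair of their own, whose relation rested on Control 1 and 2. Their r was 0.894 over 12 libraries (permutation p = 0.00099, adjusted p = 0.00636; rho = 0.657, adjusted permutation p = 0.0617), 0.512 without Control 1 and 2 and -0.132 within LOY. Both ran against Lyz2, at r = -0.799 for Ltf (adjusted permutation p = 0.00735; rho = -0.720, 0.032) and -0.731 for Camp (0.0191; rho = -0.566, 0.12), and without Control 1 and 2 these were -0.580 and -0.364. With quantile normalization r with Lyz2 was -0.427 for Ltf (adjusted permutation p = 0.392) and -0.188 for Camp (adjusted permutation p = 0.6865). Ngp, their neighbour on chromosome 9, was not correlated with Ltf (r = -0.261, adjusted permutation p = 0.525; rho = -0.147, 0.79).

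**Figure D4:**
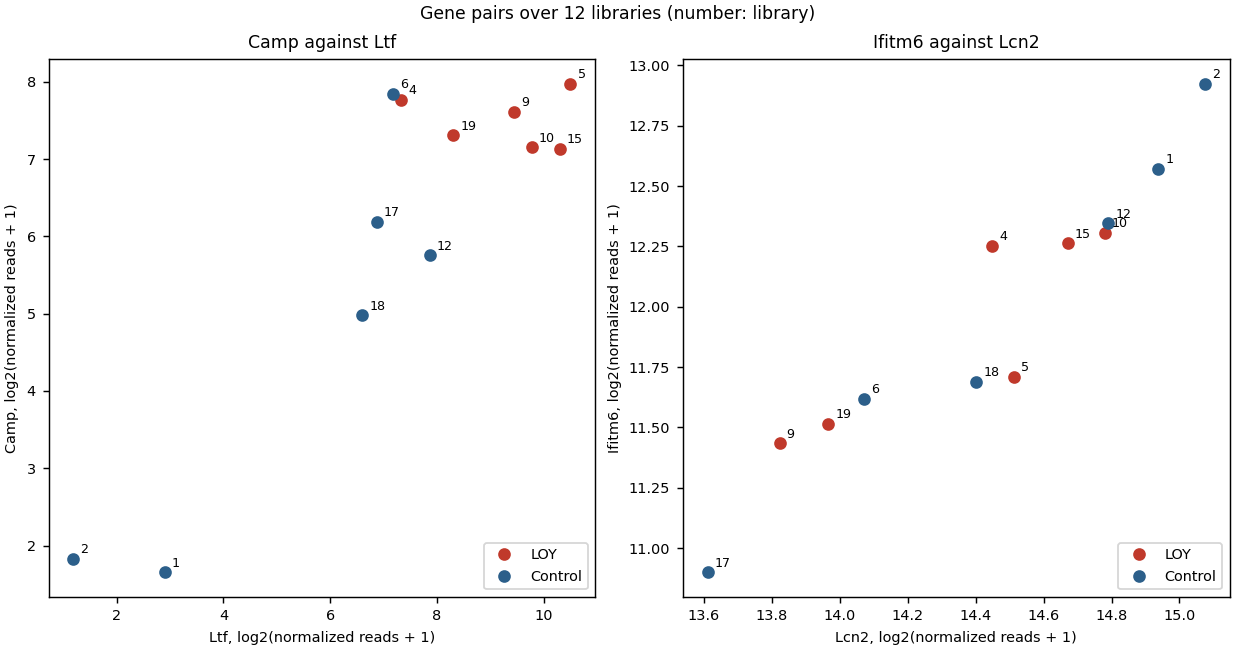
Camp against Ltf and Ifitm6 against Lcn2, each in log2(normalized reads + 1), with 1 point per library and its number beside it. Control 1 and 2 stand alone at the lower left for Ltf and Camp, whereas the LOY and Control libraries are interleaved along 1 line for Lcn2 and Ifitm6.

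Library measures moved with these genes. The share of genes at 0 ran with Camp (r = -0.901, permutation p adjusted over 30 relations 0.0057; rho = -0.804, 0.0177; r = -0.607 without Control 1 and 2), with Ltf (r = -0.793, 0.0145; rho = -0.566, 0.155; r = -0.204), with Cd177 (r = 0.787, 0.00926; rho = 0.580, 0.155; r = 0.582) and with Lyz2 (r = 0.705, 0.0243; rho = 0.601, 0.145; r = 0.330). The summed mature neutrophil markers ran with Wfdc21 (r = 0.860, 0.0057 by the same test; rho = 0.825, 0.0167; r = 0.820 without Control 1 and 2), Ifitm6 (r = 0.833, 0.0057; rho = 0.790, 0.0209; r = 0.688), Lyz2 (r = 0.852, 0.0057; rho = 0.825, 0.0167; r = 0.706) and Cd177 (r = 0.827, 0.0057; rho = 0.748, 0.0279; r = 0.706). With Lcn2 r was 0.769 (0.014 by the same test; rho = 0.748, 0.0279; r = 0.612) and with Ngp 0.752 (0.014; rho = 0.769, 0.0261; r = 0.711). Ltf and Camp ran against this sum, at r = -0.706 for Ltf (0.0233 by the same test; rho = -0.517, 0.159) and -0.732 for Camp (0.0182; rho = -0.531, 0.155), and without Control 1 and 2 these were -0.155 and -0.210. These markers summed to 99445 to 132370 RPM in LOY and 97200 to 146916 in Control. S100a8 and S100a9 weigh most in this sum, with 1081102 and 768026 normalized reads in Control 2, where the sum was highest. The following markers were named after their values were seen. Csf3r was lowest in that library, at 104006, and Cxcr2 stayed between 44295 and 51452 in all libraries. Retnlg and Fpr1 went the other way. Retnlg had 230499 normalized reads in Control 1 and 203567 in Control 2, against 61910 in LOY 9. Fpr1 had 26447 in Control 1 and 26108 in Control 2, against 12610 in LOY 9. How far the relations above rest on S100a8 and S100a9 was not tested, since the other markers were not summed apart. Whether the shared movement of the genes comes with the makeup of the library or of the cells was not tested.

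**Figure D5:**
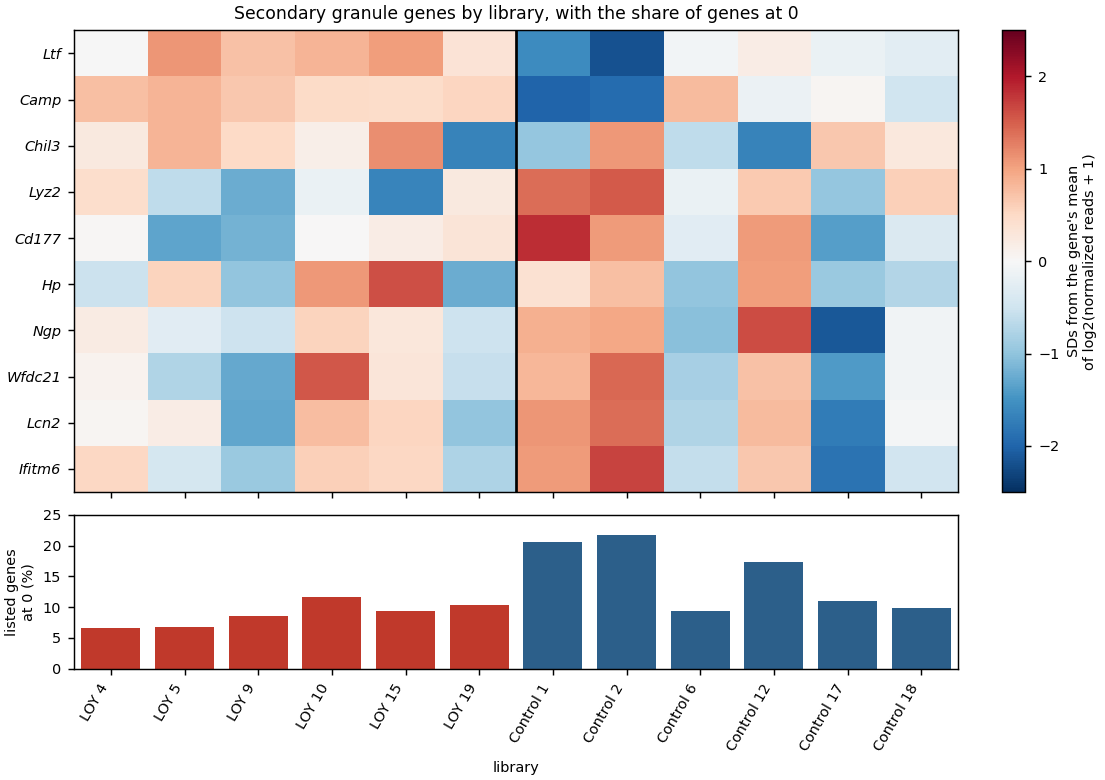
Each gene in each library as SDs from its own mean of log2(normalized reads + 1), above the share of listed genes at 0 in that library, LOY libraries left of the line and Control libraries right of it. Control 1, 2 and 12, with 20.5%, 21.7% and 17.3% of genes at 0, are high for Ngp, Wfdc21, Lcn2 and Ifitm6, and Control 1 and 2 are lowest for Ltf and Camp.

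Genes most like Ltf and Lyz2 were taken by Pearson r over the 12 libraries among genes tested outside the 10. For Lyz2 they were Lyz1 (r = 0.957), the other lysozyme gene, with which it shares sequence, Mcemp1 (0.932), the formyl peptide receptor gene Fpr1 (0.903), the actin-sequestering thymosin gene Tmsb4x (0.901) and S100a8 (0.883). For Ltf they were Gm17017 (0.934), Mdm1 (0.927), Zzz3 (0.922), the autophagy gene Gabarapl1 (0.918) and 9330159M07Rik (0.918), with r between 0.0442 and 0.669 within LOY. The 5 named are the first of many for Ltf, since 3.02% of the 9741 other tested genes had r over 0.8 with it, against 0.411% for Lyz2. These coefficients are descriptions over libraries that differ in genes at 0.

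Other granule genes were read from lists in the same fit. Of 26 tested genes of the secondary and gelatinase granules outside the 10, 0 passed (limma), with a median log2 fold change of -0.12 beside 0.14 over all genes, and 3 were at an unadjusted p under 0.05, all lower in LOY. Chil1, a chitinase-like protein gene, had 8041 ± 1601 normalized reads in LOY and 11053 ± 1131 in Control (log2 fold change -0.48 ± 0.13 SE, limma adjusted p = 0.539). Ckap4 stood at -0.88 ± 0.35, Mcemp1 at -0.23 ± 0.10 and the annexin gene Anxa3 at -1.07 ± 0.50. Retnlg, the resistin-like gene most abundant by length in the list, had 118397 ± 37354 normalized reads in LOY and 151024 ± 64039 in Control (-0.30 ± 0.31).

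Primary granule genes gave 0 of 8 tested past the threshold (limma), 0 at an unadjusted p under 0.05 and a median of 0.29. Among those with the smallest p were the serine protease gene Prss57 (1.86 ± 1.45 SE), Cd63 (-0.11 ± 0.13) and Srgn (-0.12 ± 0.14), the serglycin proteoglycan gene that was also the most abundant by length. Of 13 tested regulators of the granule programme, 0 passed, with a median of -0.32. At an unadjusted p under 0.05 (limma) there was 1, lower in LOY, beside 1.63% of all genes tested in that direction and 6.04% in either. Cux1, a repressor of Ltf in myeloid cells, had 1237 ± 201 normalized reads in LOY and 1865 ± 514 in Control (-0.56 ± 0.19), Ets1 stood at -0.71 ± 0.38, Cebpb at -0.83 ± 0.46, Tcf7l2 at 2.20 ± 1.30 and the G-CSF receptor gene Csf3r, the most abundant by length, at 0.16 ± 0.11.

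Markers of immature neutrophils summed lower in LOY, at 550 ± 87.0 RPM against 703 ± 39.1 in Control (two-sided exact permutation p = 0.00216, which is the smallest possible here; adjusted p = 0.0281 over 13 library measures; SD, n = 6 each). Only 6 of the 15 markers were in the table, 8 of the 15 also stand on other lists, and Chil1, on the granule list too, made up most of the sum: without it, a choice made after seeing the data, the other 5 summed to 54.9 ± 15.8 in LOY and 41.6 ± 8.38 in Control (exact permutation test, p = 0.102). The most abundant after Chil1 was the tubulin gene Tuba1b, at 342 ± 37.4 normalized reads in LOY and 273 ± 39.2 in Control. The progenitor receptor gene Kit, named after its values were seen, was at 0 in LOY 5 and 19 and in Control 1, 2, 6 and 12. It reached 241 normalized reads in LOY 10 and 136 in Control 18. The rest were also named after their values were seen. Prtn3 was at 0 in LOY 15 and in Control 1, 2, 6 and 12. Mki67 (64.1 to 529) and Cebpe (82.0 to 267) were above 0 in all libraries, as were Chil1 and Tuba1b.

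None of the sums over markers of other blood cells passed (exact permutation test, adjusted p from 0.27 to 0.918). Monocyte and macrophage markers, 8 of 14 in the table and led by Csf1r and Cd68, summed to 1048 to 1565 RPM in LOY and 828 to 1616 in Control (exact permutation test, adjusted p = 0.591). Eosinophil and basophil markers (5 of 12, led by Ccr3 and Ms4a2) summed to 2.91 to 16.3 RPM in LOY and 0.061 to 20.9 in Control. T and NK cell markers (5 of 12, led by Cd3d and Cd3g) summed to 5.72 to 15.5 RPM in LOY and 7.43 to 28.3 in Control. B cell markers (9 of 9, led by Ighm and Cd79a) summed to 106 to 532 RPM in LOY and 252 to 427 in Control, and platelet markers (8 of 10, led by Itgb3 and Pf4) to 42.9 to 117 RPM in LOY and 73.8 to 130 in Control. Erythroid markers (10 of 10, led by Hba-a1 and Hbb-bs) summed to 6006 to 38455 RPM in LOY, with LOY 15 highest, and 4358 to 8985 in Control (exact permutation test, adjusted p = 0.27). All 10 erythroid genes had positive estimates, with a median log2 fold change of 0.75 beside 0.14 over all genes tested, and 0 passed (limma). At an unadjusted p under 0.05 (limma) there were 2, both higher in LOY, beside 4.40% of all genes tested in that direction and 1.63% in the other. The other cell type lists stand beside the same shares. Of 5 monocyte genes tested, 1 was at an unadjusted p under 0.05 (limma) and higher in LOY. Of 7 platelet genes tested, 1 was so and lower. Among the tested eosinophil and basophil, T and NK, and B cell genes there were 0.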

How the data were processed

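RNA was measured in sorted mouse blood neutrophils, 6 LOY and 6 Control libraries, grouped by the sample titles. Alignment software, per the submitters' processing notes, included STAR 2.5.2b, with Trimmomatic 0.36, bcl2fastq 2.17, Subread 1.5.2 and featureCounts also named, on GRCm38 (mm10). The authors deposited 1 normalized signal per gene and library, whose unit the file headers do not name; within each library 100% of values above 0 were whole multiples of 1 step, within 0.02 reads, so whole read counts could be recovered. Columns of log2 fold changes and p-values were deposited beside them, per the file headers, with no tool named. The lowest mean among listed genes was 8.63. Of the identifiers, 11472 were found in GENCODE M21 (GRCm38), which gave coordinates and exon lengths.

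The test was limma 3.58.1 (R 4.3.3; trended, robust) on log2(value + 1) over 9742 genes (at least 6 libraries at 10 or above), with Benjamini-Hochberg adjustment over all of them and a threshold of 0.05. Fold changes on this scale understate low genes and exceed the fold of the means where libraries of 1 group lie near 0. The kit does not mark strand. Alternatives were edgeR 4.0.16 and DESeq2 1.42.0 on recovered reads, other scalings, filters and pseudocounts, a covariate and libraries left out. Permutation tests used numpy and scipy 1.17.1. The fits were also run on counts simulated around each gene's mean and scaled by depth. Library differences in genes at 0 beyond depth were not simulated, and the outcome is not reported here.

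The 10 genes, the lists, the tests and the alternatives were chosen with earlier results of these data known. Named genes are the 10, the 4 with the smallest p and the most abundant by length of each granule or regulator list, the 2 most abundant of each cell type list and the 5 most like Ltf and Lyz2; others are said to be named after their values were seen. In the primary granule list 1 gene that this rule names is not reported here.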

Additional observations from a re-analysis of the deposited data

Results flagged for a closer look

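Camp in Control 6, at 229 normalized reads, stood apart from the other 5 Control libraries, which held 2.15 to 72.1, and its gap to the next one was 0.691 of the range of the group. Without Control 6 the log2 fold change of Camp, LOY over Control, was 3.41 (limma adjusted p = 0.400), against 2.78 with all libraries. About 1 in 20 groups would be marked in this way by chance if values were normally distributed, and 20 groups were looked at. The gap was taken on normalized reads, not on the log2(value + 1) scale of the fits. On that scale Control 6 stood at 7.84, Control 17 at 6.19 and Control 1, the lowest, at 1.66.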

How the results depend on the processing

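No paired analysis was possible because the LOY and Control libraries share no replicate number. The count of the 10 genes that passed was 0 with limma under every alternative run and with edgeR, and 1 with DESeq2. Over all genes 2 passed with limma, 0 with edgeR and 54 with DESeq2, 0 with the share of genes at 0 in the model, quantile normalization, a minimum mean of 50, or without Control 1, 2 and 12, and 0 to 15 with 1 library left out, 15 being without Control 6. Ltf, Camp, Chil3 and Lyz2 kept their direction under all 22 alternatives; Ltf ranged from 1.88 to 4.32, Camp from 0.63 to 3.41, Chil3 from 0.28 to 2.19 and Lyz2 from -0.41 to -0.09. The other 6 changed sign, and the cause was not tested. With that share in the model Ngp was at 1.11, Lcn2 at 0.37, Cd177 at 0.24, Wfdc21 at 0.41 and Ifitm6 at 0.56, and without Control 1, 2 and 12 they were at 1.15, 0.34, 0.18, 0.31 and 0.51. With 1 library left out Ngp ranged from -0.57 to 0.26, Lcn2 from -0.29 to 0.0048, Hp from -0.014 to 0.040, Wfdc21 from -0.25 to 0.022 and Ifitm6 from -0.32 to 0.088.

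The count of correlated pairs was 19 by Pearson r and 15 by Spearman rho. By r it was 21 with each gene taken as its deviation from the group means. The count by r fell to 11 with quantile normalization, 5 without Control 1, 2 and 12, 0 within LOY and 8 within Control. As deviations from the line on the share of genes at 0 it fell to 7. Fewer libraries enter the within-group and reduced sets. With 1 library left out the count by r ranged from 14, without LOY 9, to 24, without LOY 15. Quantile normalization turned Ngp and Hp to -0.116, Lcn2 and Hp to -0.311, Hp and Wfdc21 to -0.483 and Hp and Ifitm6 to -0.362. Camp and Cd177 turned to 0.0382 without Control 1, 2 and 12 and to 0.075 as deviations from that line. Within LOY, Ltf and Camp turned to -0.132 and Camp and Lyz2 to 0.185. Ltf, Camp and Chil3 held 1 to 6 reads in some libraries, where counting error is large.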
